A study of Danio rerio with 8 samples.

Results

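The genes of the mitochondrial genome were taken from a table comparing RNA of zebrafish embryos given SU5402, an inhibitor of FGF receptors, with control embryos given its solvent DMSO. All rows of the table placed on the mitochondrial chromosome were used, which were 9 of 33843. Whole embryos, the controls called WT in the series' design, were raised at 28 °C, and SU5402 was added to the medium at the 2-cell stage to a final 20 µM from a 40 mM stock. Control embryos had an equal volume of DMSO over that period, the RNA of both groups came from the dome stage, a blastula stage soon after zygotic transcription begins, and neither strain nor clutch is given in the labels. Each condition had 2 RNA-seq samples, which the authors had pooled into 1 FPKM value per row (fragments scaled to the length of the transcript and to the size of the library), so no value below has a replicate error. The 4 ATAC-seq samples of the series were not analysed here.

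Mitochondria carry their own small circular genome, which encodes core subunits of the respiratory chain and the ATP synthase together with the rRNAs and tRNAs that translate them. Both strands are transcribed as long precursors that cover many genes, and the tRNAs that lie between the other genes mark where the precursors are cut. Nearly all proteins that copy, transcribe and process this genome are encoded in the nucleus and imported. In the early zebrafish embryo, mitochondria and much of their RNA come from the egg.

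By name, protein-coding genes could be told apart from RNA genes, but rRNA could not be told apart from tRNA. In the RefSeq table of the GRCz12tu assembly, the mitochondrial genome holds 13 protein-coding, 22 tRNA and 2 rRNA genes. The deposited rows named all 13 protein-coding genes, in 4 rows. The other 5 rows carried 8 clone-style IDs (AC024175 with a number), and 0 of the 8 were paired with a gene name in the reference tables. They are called unpaired IDs here, and no single tRNA or rRNA gene is assigned to them. The 24 RefSeq RNA genes are more numerous than these IDs, and reads of the rest may lie inside the rows of protein-coding genes.

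The rows fell into 5 regions of the mitochondrial chromosome on the Zv9 build, which covered 16582 bases and ended at base 16596. The region from base 1 to 6107 held 3 rows, one joining mt-nd1 and mt-nd2 and the others named AC024175.17 and AC024175.6. In RefSeq order both rRNA genes, mt-rnr1 and mt-rnr2, come before ND1, so this region spans them. The region from 6109 to 6423 held 1 row that joined 4 unpaired IDs (AC024175.1, AC024175.13, AC024175.18 and AC024175.5). RefSeq lists 5 genes between ND2 and COX1, the tRNA genes trnW, trnA, trnN, trnC and trnY. The region from 6425 to 15301 held 3 rows. One joined the 9 genes mt-co1, mt-co2, mt-atp8, mt-atp6, mt-co3, mt-nd3, mt-nd4l, mt-nd4 and mt-nd5, while mt-nd6 and AC024175.9 had rows of their own. The region from 15308 to 16520 was the row of mt-cyb, and the last region, of 70 bases from 16527 to 16596, was AC024175.11. RefSeq lists 2 genes after CYTB, the tRNA genes trnT and trnP. Between COX1 and CYTB it lists 9 tRNA genes and no rRNA gene. By RefSeq position, the unpaired IDs outside the first region would thus not be rRNA genes. For AC024175.17 and AC024175.6, inside the first region, position does not separate rRNA from tRNA. Whether the libraries kept strand is not given in the sources used here, and without strand the reads of mt-nd6, which vertebrates encode on the opposite strand to the other protein-coding genes, cannot be told apart from antisense reads.

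The mitochondrial genome held the highest values of the table in both conditions. On the FPKM scale, its 4 protein-coding rows were the 4 highest of the whole table in control and again in SU5402 embryos. The highest row of a nuclear gene was h3f3a, a histone H3.3 gene, at 2075 FPKM in control, and setb, whose product is a histone chaperone, at 3287 FPKM in SU5402. Summed over the rows, the mitochondrial genome held 15.4% of all FPKM in control and 13.7% in SU5402 embryos. With loci of at most 500 bases left out, a limit chosen after the values were seen, the gap was smaller, at 15.4% and 14.3%. That limit also takes AC024175.11 and the row of 4 unpaired IDs out of the mitochondrial sum. The latter row had 1968 FPKM in control and 87.0 in SU5402. Its protein-coding rows held 14.4% and 12.8%, and the rows of unpaired IDs 0.995% and 0.882%. The summed mitochondrial level was 73706 FPKM in control and 70845 in SU5402, a log2 difference of -0.06, while the sum over all other loci was 0.14 higher in SU5402 on the log2 scale. The share depends on both sums. In such pooled whole-embryo values, the number of mitochondria and the amount of RNA per mitochondrion cannot be told apart.

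**Figure D1:**
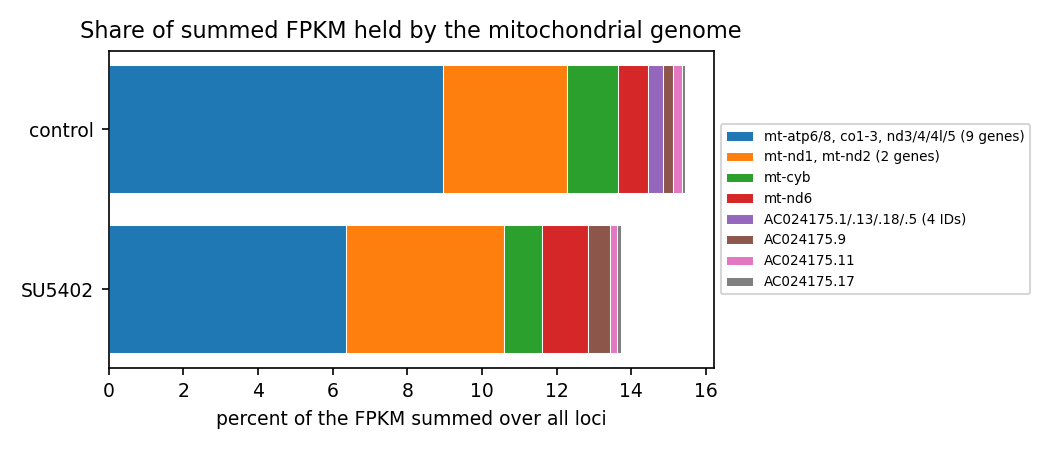
Horizontal stacked bars give the percent of the FPKM summed over all 33843 loci that each tested mitochondrial row held, in control and in SU5402 embryos, with 1 pooled value per condition and no error. The bars end at 15.4% in control and 13.7% in SU5402, and the segment of the 9-gene row is the one that differs most.

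In the authors' deposited table, 8 of the 9 rows had been tested and none was called different between SU5402 and control. A call was a Cuffdiff q-value of at most 0.05, and 5.64% of all 12757 tested loci were called, 3.58% higher and 2.06% lower in SU5402. At a q of at most 0.01, also 0 of the 8 rows passed, against 2.33% of all tested loci. At an unadjusted Cuffdiff p below 0.05, 2 of the 8 rows passed, against 11.1% of all tested loci. A Benjamini-Hochberg adjustment of the same p-values over all tested loci, run as a stricter reading, left 0 of the 8 rows, against 1.65% of all tested loci. The deposited q-values differ from this adjustment, at 0.0504 against 0.269 for the row of mt-nd1 and mt-nd2. Over which set of tests Cuffdiff's q was computed is not given in the sources used here. Of 120 other loci that reached 400 FPKM in their higher condition, a level chosen after the values were seen, 24 were called, or 20.0%. Of these 24, 19 were higher and 5 lower in SU5402. A locus could enter this set through its higher condition alone, which favours loci that differ. The 20.0% is therefore not a matched background for the mitochondrial rows. Missing the threshold does not show that a row did not differ. With 1 pooled value per condition the spread between samples is not seen, and no interval of the difference was computed.

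Of the 8 tested rows, 3 had a higher value in SU5402 and 5 a lower one. Their median log2 difference was -0.10, beside 0.04 over the 12715 tested loci with a finite ratio. The median size of the difference, whatever its direction, was 0.42 for the 8 rows and 0.27 for those loci. Those loci are not matched in level, with a median of 9.99 FPKM in control against 2928 for the 8 rows. Among 119 other loci that reached 400 FPKM and had a finite ratio, a set that favours loci that differ, the median size was 0.32. The 4 protein-coding rows were divided evenly, 2 higher and 2 lower, with a median of 0.09 that becomes -0.053 when FPKM is divided by the sum outside the mitochondrial genome.

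**Figure D2:**
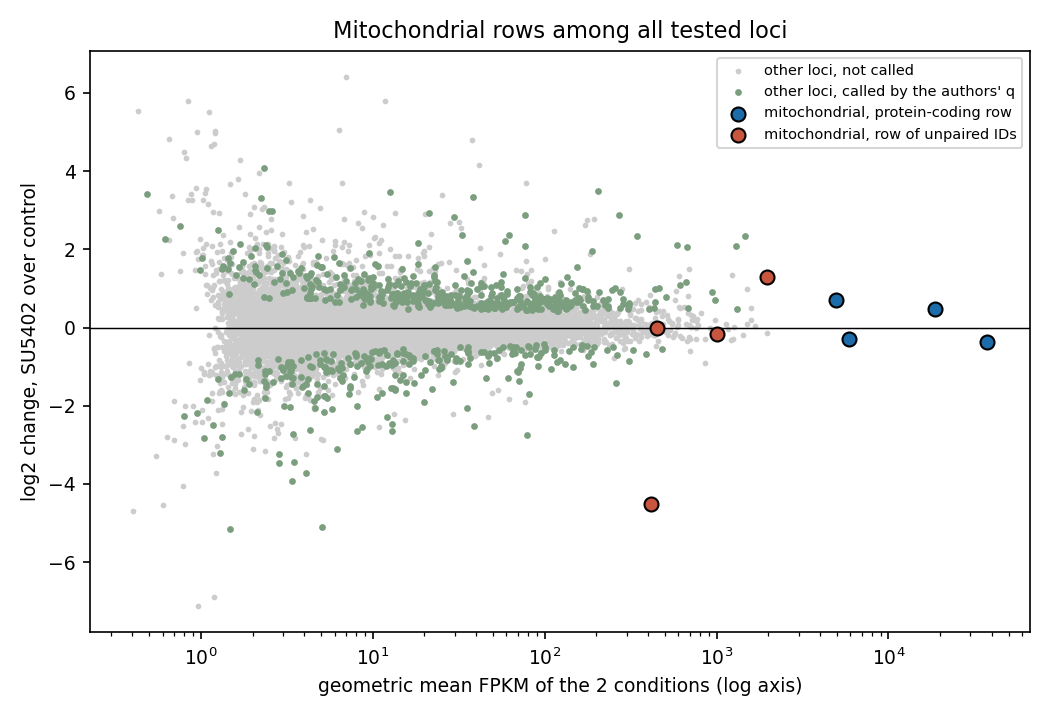
Each point is a tested locus with a value above 0 in both conditions, with its geometric mean FPKM on a log x axis and its log2 change, SU5402 over control, on the y axis. The 4 protein-coding mitochondrial rows stand to the right of every other locus, between -0.38 and 0.70 on the y axis, and the row of 4 unpaired IDs stands far below the other mitochondrial rows at -4.50.

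Genes mt-nd1 and mt-nd2 encode core subunits of complex I, the NADH dehydrogenase that starts the respiratory chain. Their joined row had 15794 FPKM in control embryos and 21828 in SU5402 embryos. The authors' deposited table gave a 1.38-fold higher value in SU5402, a log2 difference of 0.47 (Cuffdiff p = 0.0153, q = 0.0504). It was the mitochondrial row nearest to a call, and 2 tested loci had a q between the threshold and its own. The largest q that was called in the whole table was 0.04996. Over all tested loci the adjusted p from Cuffdiff's p was 0.269. The region spans both rRNA genes, and whether reads of rRNA were counted in this row cannot be told from the table.

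The complex I genes mt-nd3, mt-nd4, mt-nd4l and mt-nd5 were joined in 1 row with genes of complex IV and of the ATP synthase. In that row mt-co1, mt-co2 and mt-co3 encode the catalytic core of cytochrome c oxidase, which reduces oxygen, and mt-atp6 and mt-atp8 encode membrane subunits of the ATP synthase. The row had 42772 FPKM in control embryos and 32826 in SU5402 embryos, the highest value of the table in each condition. In the authors' deposited table it was 1.30-fold lower in SU5402, a log2 difference of -0.38 that was not called (Cuffdiff p = 0.0679, q = 0.162). How this value divides among the 9 genes cannot be read from the table. If the row's value were the sum over 9 separate transcripts, an even division would give 4752 FPKM a gene in control and 3647 in SU5402. For a transcript that spans several genes this division would not hold, and which case applies is not known here.

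Cytochrome b, encoded by mt-cyb, is the mitochondrial subunit of complex III, and it had a row of its own. It had 6504 FPKM in control embryos and 5338 in SU5402 embryos in the authors' deposited table, 1.22-fold lower in SU5402 (log2 difference -0.29, Cuffdiff p = 0.118, q = 0.246). The row of mt-nd6, a further membrane subunit of complex I, had 3887 FPKM in control embryos and 6299 in the treated ones. The latter was 1.62-fold higher in SU5402, a log2 difference of 0.70, with a Cuffdiff p of 0.550 and a q of 0.701. These were the protein-coding genes with a row to themselves, and neither was called. Their order was mt-cyb above mt-nd6 in control and mt-nd6 above mt-cyb in SU5402, and without replicate values it is not known whether either order exceeds the spread between samples.

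**Figure D3:**
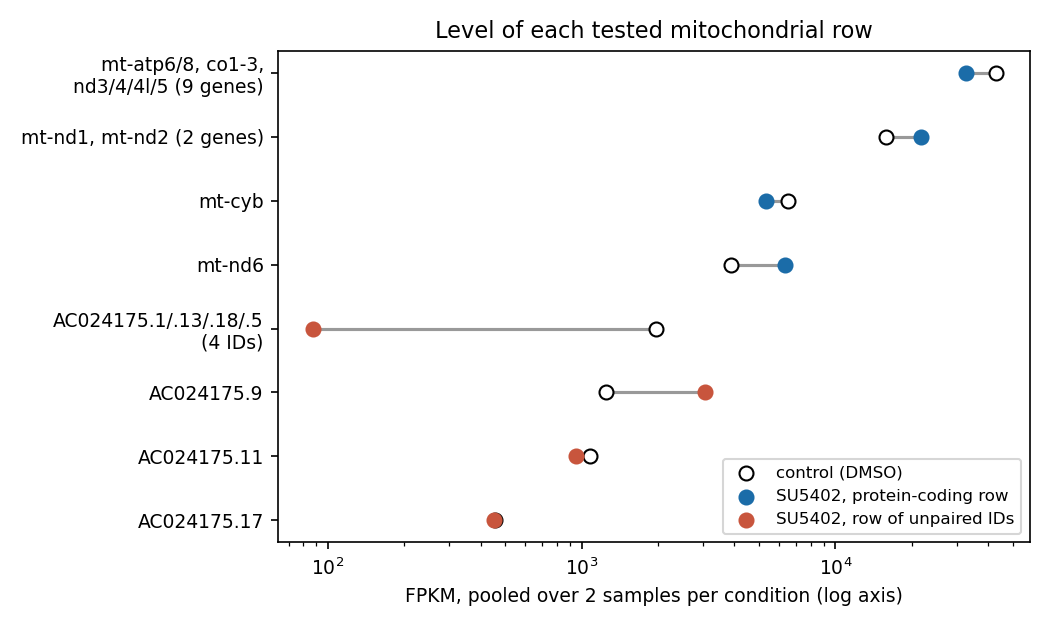
For each of the 8 tested mitochondrial rows, the open circle is the control FPKM and the filled circle the SU5402 FPKM on a log axis, each pooled over 2 samples with no error, in blue for protein-coding rows and red for rows of unpaired IDs. The longest line joins 1968 and 87.0 FPKM for the row of 4 unpaired IDs, and the circles of AC024175.17 nearly coincide at 456 and 449 FPKM.

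Ratios between rows of the same condition do not depend on how the libraries were scaled. The row of mt-nd1 and mt-nd2 stood at 0.369 times the 9-gene row in control and at 0.665 times it in SU5402 embryos, so their log2 differences lay 0.85 apart. In contrast mt-cyb stood at 0.152 and 0.163 times the 9-gene row, 0.10 apart on the log2 scale. The ratio of mt-nd6 to the 9-gene row was 0.0909 in control and 0.192 in SU5402. Of the FPKM of the protein-coding rows, mt-nd1 and mt-nd2 made up 22.9% in control and 32.9% in SU5402, and the 9-gene row 62.0% and 49.5%. The share of mt-cyb was 9.43% and 8.05%, and that of mt-nd6 5.64% and 9.50%. The rows differed in opposite directions while their sum differed by -0.06 on the log2 scale, and none of these ratios has a replicate error or was tested.

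Along the chromosome, the 2 regions with several rows held tested rows of both signs, and none of these differences was called. In the first region the lower row, AC024175.17, differed by only -0.02. Between bases 6425 and 15301, the 9-gene row was lower in SU5402 while mt-nd6 and AC024175.9 were higher. The FPKM of these 3 rows summed to 47909 in control and 42192 in SU5402, a log2 difference of -0.18. Between bases 1 and 6107, the sum was 16250 FPKM in control and 22277 in SU5402, a log2 difference of 0.46, nearly all of it from mt-nd1 and mt-nd2. Where rows overlap, reads may have been divided between them, and the part of that division in the differences was not tested.

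Among the rows of unpaired IDs, AC024175.9, inside the region of the 9-gene row, had 1250 FPKM in control embryos and 3068 in treated ones. In the authors' deposited table it was 2.45-fold higher in SU5402, a log2 difference of 1.30, and passed an unadjusted threshold of 0.05 but not the q threshold (Cuffdiff p = 0.0418, q = 0.112). AC024175.17, in the region of mt-nd1, was listed at 456 and 449 FPKM (Cuffdiff q = 0.993), and AC024175.6 of the same region was listed at 0 in both conditions and had not been tested. The 70-base row AC024175.11 had 1074 FPKM in control embryos and 951 in treated ones (log2 difference -0.18, Cuffdiff q = 0.794). Over the 4 tested rows of this kind the median log2 difference was -0.10, with 1 higher and 3 lower.

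The widest gap in the mitochondrial genome was in the row of 4 unpaired IDs between mt-nd2 and mt-co1. It had 1968 FPKM in control embryos, the sixth highest value of the table, and 87.0 FPKM in treated ones. The authors' deposited table gave it a 22.6-fold lower value in SU5402, a log2 difference of -4.50, and no call (Cuffdiff p = 0.0828, q = 0.189). The row spans 315 bases, and short loci had wide differences throughout the table. Among 268 other tested loci of at most 500 bases with a finite ratio, a limit chosen after the values were seen, the median size of the log2 difference was 0.91, against 0.27 among 12439 longer ones. Of the 268 short loci, 3 differed by as much as this row or more. Among all tested loci outside the mitochondrial genome with a finite ratio, short and long, 19 did. Of all 280 tested short loci 7.86% were called, against 5.60% of longer ones. The short loci leaned the other way, 185 higher and 83 lower in SU5402, with a median log2 difference of 0.61. Their median level was 11.96 FPKM in control, far below the 1968 FPKM of this row. They are therefore matched to it in neither direction nor level. Length here is the span of the region, which overlapping rows share. The other mitochondrial row in a region of at most 500 bases, AC024175.11, differed by 0.18 in the same direction. AC024175.9, with a log2 difference of 1.30, and AC024175.17, with -0.02, share long regions with protein-coding rows. Their own lengths are not known here. How far the short length contributes to the gap was not tested.

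The size of the difference and the p-value did not follow each other among the 8 rows. The lowest p belonged to mt-nd1 and mt-nd2 with a log2 difference of 0.47, the next to AC024175.9 with 1.30, and the row with -4.50 came only after the 9-gene row with -0.38.

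**Figure D4:**
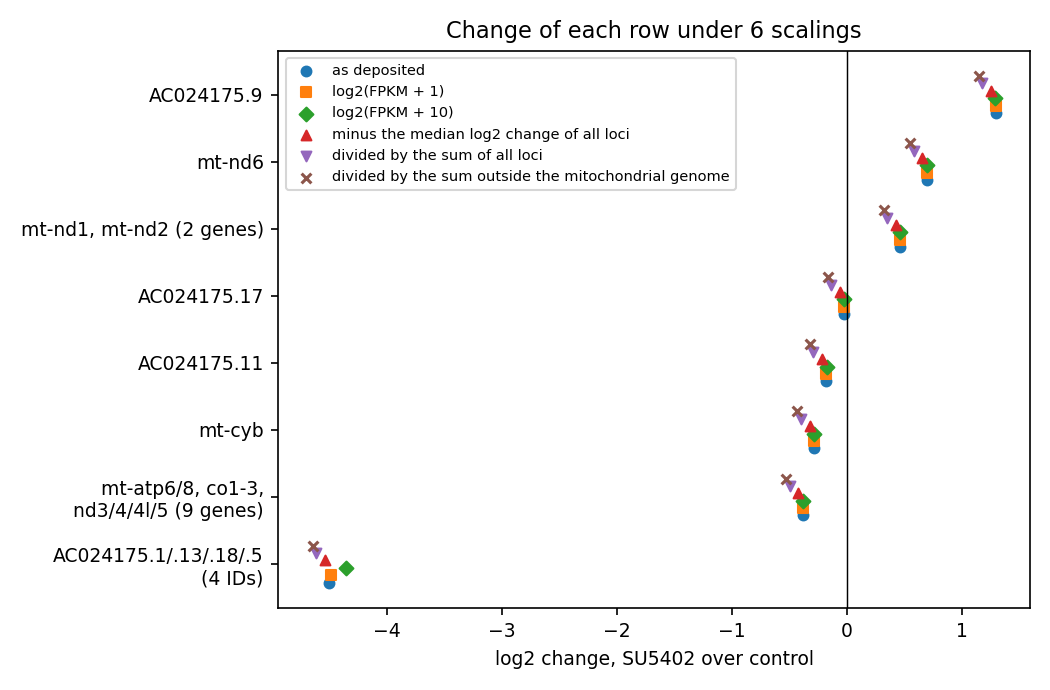
The x axis gives the log2 difference, SU5402 over control, of each of the 8 tested mitochondrial rows as deposited and under 5 other scalings, which are marked by symbol. Every row kept its sign under each of these scalings, which their arithmetic fixes for these values. Division by the sum outside the mitochondrial genome moved each value by -0.14.

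Nuclear genes that copy and transcribe the mitochondrial genome include 2 that were called. The list held 16 rows, of which 13 had been tested; 2 were called higher in SU5402, 0 lower and 11 not called. That is 15.4% called beside 5.64% of all tested loci, a share that rests on these 2 genes, with a median log2 difference of 0.39 beside 0.04 over all loci tested. The authors' deposited table called tfam, whose product packages mitochondrial DNA and activates its promoters, 2.08-fold higher, from 6.76 to 14.0 FPKM (Cuffdiff q = 0.00616). It also called top1mt, the mitochondrial topoisomerase I gene, 1.92-fold higher, from 14.1 to 27.1 FPKM (Cuffdiff q = 0.0105). With the adjustment over all tested loci neither passed, at 0.0643 and 0.0923 from Cuffdiff's p. The mitochondrial RNA polymerase gene POLRMT was listed at 6.18 and 8.67 FPKM and was not called (Cuffdiff q = 0.420). The transcription factor gene tfb2m, at 1.01 and 1.23 FPKM, had not been tested. The row joining mterfd1, an older name of mterf3, with uqcrb, a complex III gene, was listed at 39.6 and 41.5 FPKM (Cuffdiff q = 0.910) and is counted in the lists of both.

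In the list of RNA processing, stability and decay, 17 of 18 rows had been tested and 1 was called, a share of 5.88% that is near the 5.64% of all tested loci, with a median of -0.05. It was supv3l1, the helicase gene of the mitochondrial RNA degradosome, which fell 1.66-fold from 25.96 to 15.6 FPKM (Cuffdiff q = 0.0492) and did not pass the adjustment over all tested loci (0.265). The RNA stabilising factor gene lrpprc was listed at 15.9 and 14.1 FPKM and was not called (Cuffdiff q = 0.636). In the list of tRNA and rRNA modification, 15 of 18 rows had been tested and 1 was called, or 6.67% beside 5.64% of all tested loci, with a median of 0.23. It was pus1, a pseudouridine synthase gene that also acts on tRNAs outside mitochondria, which rose 2.19-fold from 63.6 to 139 FPKM (Cuffdiff q = 0.000383) and passed the adjustment over all tested loci (0.00591). Among regulators of mitochondrial biogenesis, 9 of 15 rows had been tested, with a median of 0.10. Of these 9 rows, 0 passed by Cuffdiff's q, at an unadjusted p below 0.05 or with the adjustment. Over all tested loci the shares were 5.64%, 11.1% and 1.65%, and with so few rows 0 does not set the list apart. The regulator gene nrf1 was listed at 48.6 and 54.0 FPKM.

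The nuclear partners of the mitochondrial subunits were far less abundant on the FPKM scale. Over 93 tested rows of nuclear respiratory chain, cytochrome c and ATP synthase genes, chosen by symbol with their assembly factors included, the median was 11.99 FPKM in control and 12.1 in SU5402 embryos. Their highest row was atp5g1, a subunit gene of the ATP synthase, at 157 FPKM in control, and mt-cyb stood 41.5 times above it. In SU5402 it was the cytochrome c gene cycsb at 185 FPKM. Of the 93 rows, the authors' deposited table called 2 higher and 3 lower, and their median log2 difference was -0.02. The share called, 5.38%, was near the 5.64% of all tested loci. For complex III, whose mitochondrial subunit is mt-cyb, 0 of 9 nuclear rows were called and the median was 0.07. For complex I, 1 of 44 nuclear rows was called higher, ndufv1 (37.3 to 52.8 FPKM), and 2 lower, ndufb11 (10.2 to 4.16 FPKM) and ndufs8a (11.5 to 5.79 FPKM). In the ATP synthase, atp5g1 was called lower (157 to 75.2 FPKM) and ATP5J2 higher (5.85 to 9.68 FPKM) among 16 rows, and of complex IV 0 of 17 were called. Of these calls, that of atp5g1 alone passed the adjustment over all tested loci (0.00591 from Cuffdiff's p). Mitochondrial ribosomal protein genes encode parts of the ribosome that translates the mRNAs of the 13 mitochondrial protein-coding genes. They had 2 of 67 tested rows called higher and 2 lower, or 5.97% called, again near the 5.64% of all tested loci. The called rows were mrpl12 (28.8 to 57.3 FPKM) and the row joining CENPQ and mrpl39 (12.8 to 22.9 FPKM), higher, then mrpl13 (18.4 FPKM in control, 9.86 in treated embryos) and mrpl36 (6.02 and 3.07), lower, and none passed the adjustment over all tested loci. Over the 67 rows, 45 had a higher and 22 a lower value in SU5402, with a median log2 difference of 0.22. Over the 12715 tested loci with a finite ratio, 6909 were higher and 5806 lower, with a median of 0.04. Division by the sum outside the mitochondrial genome shifts every log2 difference by -0.14, and the split of the 67 rows was not tested.

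**Figure D5:**
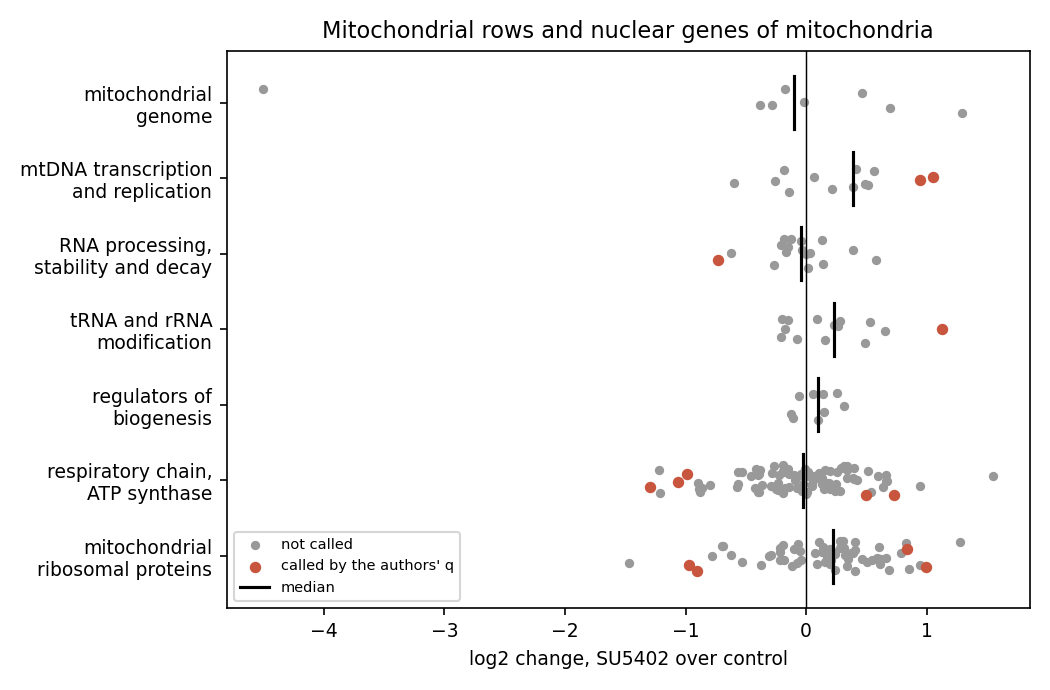
Points are the log2 differences, SU5402 over control, of tested rows with a finite value, for the mitochondrial genome and 6 lists of nuclear genes, with calls by the authors' q in red and medians as black bars. None of the 8 mitochondrial rows is red, and the list of mitochondrial DNA transcription and replication has the highest median at 0.39.

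A few marker genes per cell type were read from the same table, and whole-embryo values do not show which cells the RNA came from. Blastoderm markers ranged from 55.1 to 1106 FPKM in control and enveloping layer markers from 34.0 to 107 FPKM. Of these lists, blastoderm had 0 of 4 called, and the enveloping layer had krt8 called higher (69.2 to 106 FPKM) and cldne lower (34.0 to 20.4 FPKM) of 4, beside 5.64% of all tested loci. Neither passed the adjustment over all tested loci, at 0.0717 and 0.0890 from Cuffdiff's p. In the yolk syncytial layer list, apoeb was called higher, from 328 to 661 FPKM, and passed that adjustment. The other 2 markers of the list were not called, mxtx2 at 104 and 94.5 FPKM and slc26a1 at 4.57 and 3.49 FPKM, and the list's median log2 difference was -0.14. The germ plasm list had 0 of 3 tested rows called. Its rows ranged from 0.101 to 91.4 FPKM in control, and the lowest, nos1, had not been tested. The 7 rows of later differentiated tissue had not been tested and reached at most 0.502 FPKM in control and 1.18 in SU5402. The part of cell composition in the mitochondrial values was not tested.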

How the data were processed

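The series holds 8 samples in 4 groups, and the 2 RNA-seq groups of 2 samples each were used, as 1 table of the authors' own comparison. The submitters' processing notes name TopHat2, Picard, Cufflinks and Cuffdiff and the Zv9 (danRer7) build. For versions, options, annotation, RNA selection and strandedness the sources used here give nothing. The deposited columns are, per the file headers, a pooled FPKM per condition and locus, the log2 fold change of SU5402 over control, a test score that was not used here, a p-value and a q-value. With no value per sample, no test across samples could be run, depth is unknown and no counting interval is given. The labels do not say whether the samples were separate clutches, and the spread behind the deposited p-values may then be technical.

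Rows were taken by the mitochondrial chromosome, 1 was added to each start, and names were matched to the RefSeq table (GRCz12tu), which was used for names and gene order only. The deposited p-values were adjusted by the Benjamini-Hochberg method over all tested loci with Python 3.11.15, pandas 2.3.3 and numpy 2.4.6, after a check on simulated p-values. The text names all protein-coding genes, called genes of each nuclear list (at most 3 per direction) and tfam, POLRMT, tfb2m, lrpprc and mterfd1. The unpaired IDs, nrf1, cycsb, h3f3a, setb and the marker genes were named after their values were seen. Members and lists were chosen with earlier results of these data known. Alternatives were pseudocounts of 1 and 10 FPKM, other scalings, an FPKM minimum of 1, stricter q and region sums.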

Additional observations from a re-analysis of the deposited data

How the results depend on the processing

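No paired analysis was possible because the table holds 1 pooled value per condition; for the same reason no replicate could be left out. A value with no test was taken as unmoved when it shifted by less than 0.1 on the log2 scale. All 8 rows kept their sign under pseudocounts of 1 and 10 FPKM and under median centring. They also kept it under division by the sum of all loci or of those outside the mitochondrial genome. Arithmetic fixed this outcome, which is therefore no sign of stability. A pseudocount added to both values cannot turn a sign. Centring shifts every log2 change in the table by -0.04, and these divisions by -0.11 and -0.14, while the smallest positive difference of the 8 rows was 0.47. Under division by the sum outside the mitochondrial genome, the median of the protein-coding rows turned from 0.09 to -0.053. That of the rows of unpaired IDs went from -0.10 to -0.24. Summing FPKM over rows of a region, added after seeing the data, gave 0.46 for the region of AC024175.17 in place of -0.02, and -0.18 for that of AC024175.9 and mt-nd6, in place of 1.30 and 0.70, because the largest row carries each sum. The share of summed FPKM without loci of at most 500 bases, also added, was 15.4% in control and 14.3% in SU5402. This gap is smaller than with all loci in the sum, at 15.4% and 13.7%. The limit takes AC024175.11 and the row of 4 unpaired IDs out of the mitochondrial sum as well.

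No mitochondrial row was called at a q of 0.05, at 0.01 or with the adjustment over all tested loci, and 2 had an unadjusted p below 0.05. Over all 12757 tested loci, 720 calls (5.64%) became 210 (1.65%) with that adjustment. They became 297 (2.33%) at a q of 0.01 and 1418 (11.1%) at an unadjusted p below 0.05. With the adjustment, calls went to 0 from 2 for transcription and replication (13 rows tested) and to 0 from 1 for RNA processing (17 tested). They went to 1 from 5 for the respiratory chain (93 tested) and to 0 from 4 for ribosomal proteins (67 tested). At a q of 0.01 these lists had 1, 0, 1 and 1. At an unadjusted p below 0.05, RNA modification had 2 of 15 in place of 1, the respiratory chain 8 of 93 and ribosomal proteins 9 of 67. The share over all tested loci at that threshold was 11.1%. Settings other than the authors' q for the nuclear lists, and the unadjusted p, were added after seeing the data. Depth is unknown, so what it limits could not be measured.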
